A study of Rattus norvegicus with 63 samples.

Results

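The imprinted Dlk1-Dio3 region of rat chromosome 6 carries a dense series of miRNA genes, and 42 of the 350 rat miRNAs on the arrays belong to it. They were chosen by name: every unstarred array name with a miRNA number of the region was taken, whichever arm of the hairpin it stands for. Of the 41 numbers asked for, 38 were on the array, and miR-496, miR-667 and miR-668 were not among its names. In this region the protein-coding genes Dlk1, Rtl1 and Dio3 are expressed from the paternal chromosome, whereas the long noncoding RNA Meg3 and the miRNAs downstream of it are read from the maternal chromosome in the same direction as Meg3. The miRNAs are best known from embryo, placenta and brain and are largely silent in the adult liver. In mouse liver, phenobarbital is known to raise Meg3 and other noncoding RNAs of the region, so PB was the compound of most interest here.

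Liver miRNA was measured on 63 Agilent arrays, 1 per rat, in 21 groups of 3 male Wistar Hanover rats. The rats were 8 to 10 weeks old when assigned to groups, carried no genetic change named in the labels, and received a compound or its vehicle by gavage. The rats profiled are a selection from larger dose groups. By the study's methods, treated rats were chosen because histopathology showed some change in their livers. The time point of each compound was that of its strongest mRNA change in an earlier study. The livers were whole tissue, so a change in the number of cells of a type and a change of RNA per cell cannot be told apart. Each compound was compared with the vehicle set its label names.

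Phenobarbital sodium (PB) was given for 14 days at a dose that the study's methods state and its label does not, and was compared with methylcellulose (MC) set 6, given for 14 days. All other MC sets were also given for 14 days. Set 1 was the control of acetamide (AA, 3000 mg/kg/d, 14 days), dehydroepiandrosterone (DHEA, 600 mg/kg/d, 14 days), methylcarbamate (Mcarb, 400 mg/kg/d, 14 days), methapyrilene HCl (MPy, 60 mg/kg/d, 7 days), thioacetamide (TAA, 19.2 mg/kg/d, 7 days) and Wy-14643 (Wy, 60 mg/kg/d, 3 days). Set 2 was the control of cefuroxime (CFX, 250 mg/kg/d, 14 days) and nifedipine (Nif, 3 mg/kg/d, 14 days). Set 5 was the control of diethylstilbestrol (DES, 10 mg/kg/d, 3 days), ethionine (ETH, 200 mg/kg/d, 14 days) and piperonylbutoxide (PBO, 1200 mg/kg/d, 3 days). Corn oil (CO) set 3, given for 7 days, was the control of C.I. Direct Black (CIDB, 146 mg/kg/d, 7 days) and dimethylnitrosamine (DMN, 4 mg/kg/d, 7 days). CO set 4, given for 14 days, was the control of cyproterone acetate (CPA, 100 mg/kg/d, 14 days). By these labels DES, PBO, Wy, MPy and TAA were given for a shorter time than their controls, whereas the study's methods describe the controls as matched in time. For the compounds compared with MC sets, the methods name carboxymethyl cellulose as vehicle but call the control vehicle methylcellulose. Compounds that share a vehicle set share its rats, so their comparisons are not independent.

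The arrays lay on 9 slides. Scan day 1 held 30 of them, day 2 held 28 and day 3 held 5, and the days differed in brightness, with array medians of at least 193.5 units on day 1 and at most 153.5 on day 2 and 78 on day 3. PB rats 1 and 2 and all MC set 6 rats were scanned on day 1, and PB rat 3 on day 3. The arrays of DES and DHEA and of MC sets 1, 2 and 5 stand under labels that the authors' value table does not follow: 15 columns of the table track the scanner readings of another of these groups. Its DES columns track the arrays labelled DHEA, and its DHEA columns those labelled DES. Its columns of MC sets 1, 5 and 2 track the arrays labelled MC sets 5, 2 and 1, in that order. The labels of the scanner readings were used here. PB, MC set 6 and the CO sets are not affected.

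RefSeq (GRCr8) holds mature sequences for all 42 cluster miRNAs. Their genes all lie on the plus strand of chromosome 6 within 282 kb, from Mir770 to Mir410. The widest gap, 189 kb between Mir370 and Mir379, divides them into 11 upstream and 27 downstream genes. Only 8 of the 42 array names give an arm, and the other names do not say which arm their probes read. For miR-136, miR-323, miR-376a, miR-379, miR-382 and miR-543 the array has a starred name for the opposite arm, so the unstarred name stands for only 1 arm. The sequences below are those of the 3 miRNAs that were detected, with both arms where the name leaves it open. Capitals mark the seed, bases 2 to 8, which pairs with target mRNAs. The miR-494 hairpin lies at chr6:134550115-134550197, miR-487b at chr6:134562890-134562971 and miR-409 at chr6:134579185-134579261.
rno-miR-494-3p: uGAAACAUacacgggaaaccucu
rno-miR-494-5p: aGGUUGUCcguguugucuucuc
rno-miR-409a-3p: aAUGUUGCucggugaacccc
rno-miR-487b-3p: aAUCGUACagggucauccacuu
rno-miR-487b-5p: aGUGGUUAucccuguccucuucg

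The seeds of the detected miRNAs differ from each other. Over the arms listed for each name, only 1 for some such as miR-127, the 42 miRNAs have 68 different seeds. Of these seeds, 3 occur in a pair of members. The seed of miR-494-5p is shared with miR-410-5p, that of miR-381-3p with miR-539-3p, and that of miR-376b-5p with miR-376c-5p. These pairs are printed because they are the only ones among the listed arms that a seed would place together. Of their 6 array names only miR-494 was detected, and its name does not say whether its probes read the 5p arm.
rno-miR-410-5p: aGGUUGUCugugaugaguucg
rno-miR-381-3p: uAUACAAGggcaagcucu
rno-miR-539-3p: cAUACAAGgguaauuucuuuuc
rno-miR-376b-5p: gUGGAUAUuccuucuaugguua
rno-miR-376c-5p: gUGGAUAUuccuucuauguuu

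Detection was the first question, and most of the cluster was not seen in these livers. A miRNA counts as detected on an array when the scanner software marks it so. Of the 42 cluster miRNAs, 3 were detected on at least 1 array (7.14%), against 159 of the other 308 miRNAs (51.6%). miR-494 was detected on all 63 arrays, miR-409-3p on 29 and miR-487b on 7. All 3 lie downstream of the gap, where the array has 31 of the 42 members, and 0 of the 11 upstream members were detected.

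The other 39 members were detected on 0 of 63 arrays, and the software listed each at its floor of 0.1 units everywhere. They include miR-127, which lies antisense to Rtl1, the brain-expressed miR-134, the miR-376 family and miR-370, miR-379 and miR-410. Their brightness was set against the spots of negative-control probes on the same array, which hold no miRNA target. Averaged over the arrays, the 39 members lay between -0.57 SDs (miR-770) and 0.84 SDs (miR-369-3p) from the mean of these spots, with a median of 0.04, and 18 of them lay below it. The 149 other miRNAs detected on no array had a range from -0.77 to 1.33 and a median of 0.04. The highest single value of a never-detected member was 1.42 SDs, for miR-369-3p in TAA rat 2. The 39 members were thus not detectable at this sensitivity, which sets a bound on their level and does not show that they are absent.

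Of the detected members, miR-494 was on average 12.0 SDs above the negative controls, with a range from 2.66 to 70.7 over the arrays. miR-409-3p was on average 1.99 SDs above them (range -0.31 to 7.35) and miR-487b 0.39 SDs (range -0.46 to 4.25). Under the stricter mark, well above background, miR-494 passed on 63 arrays, miR-409-3p on 5 and miR-487b on 3. Each of the 3 has several probes. All 3 probes of miR-409-3p had a median processed signal between 12.7 and 13.8 units, whereas for miR-487b only 1 of 3 probes had a median above 0.

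**Figure D1:**
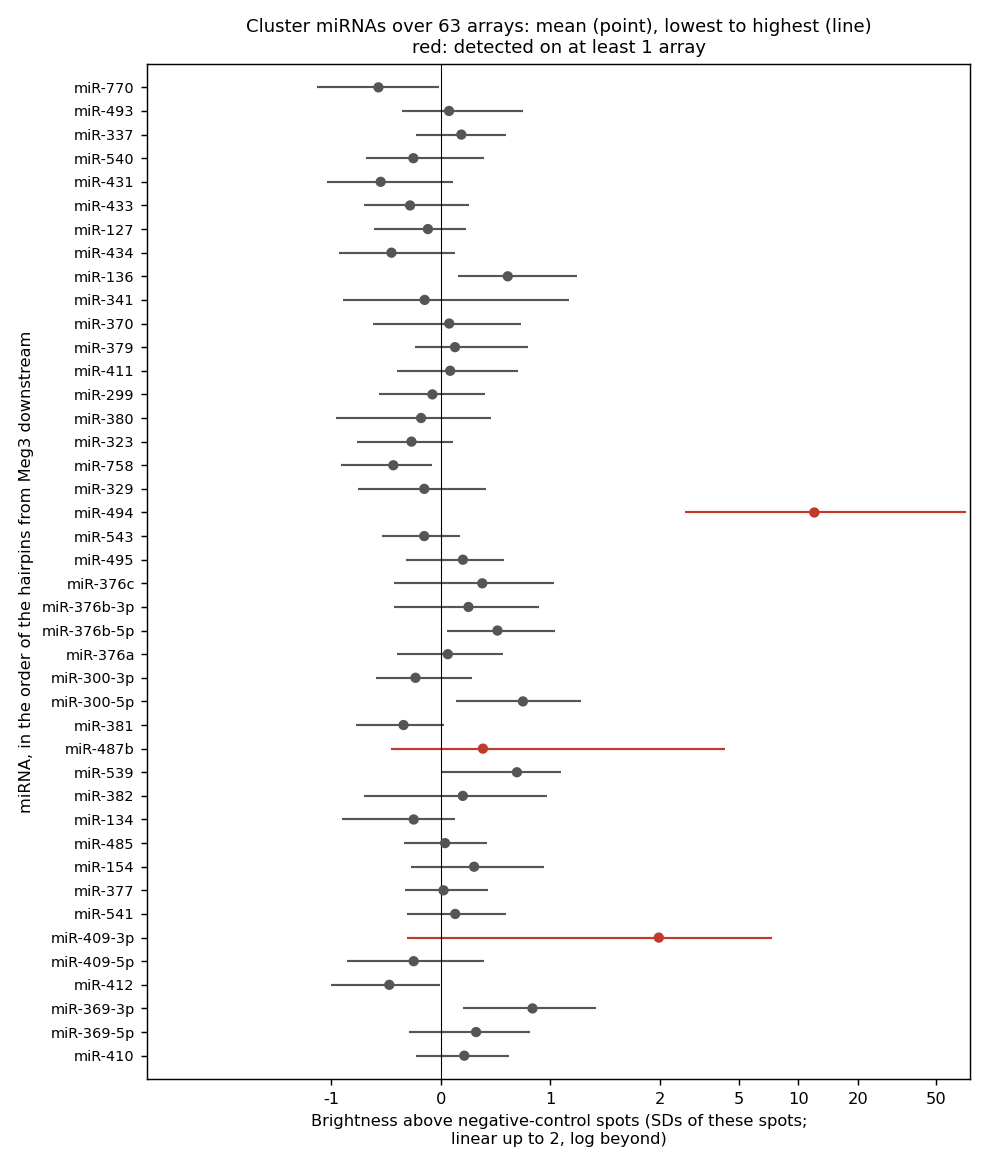
Brightness of the 42 cluster miRNAs (vertical axis, in genome order) above the negative-control spots of the same array, in SDs of these spots (horizontal axis, linear up to 2 and logarithmic beyond). Points are means over 63 arrays, lines run from the lowest to the highest array, and red marks the 3 detected miRNAs, of which only miR-494 lies above 2 SDs on every array.

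The total signal is the scanner software's background-subtracted sum for a miRNA, in units of brightness. The log2 value is the quantile-normalized mean brightness without background subtraction, on which all tests were run. Because the background stays in it, a log2 difference understates the change of a dim miRNA. A miRNA was called when its adjusted p in limma (Benjamini-Hochberg over the 162 miRNAs detected on at least 1 array) was under 0.05.

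In PB, miR-494 was high in 1 of 3 rats and at the level of the controls in the other 2. Its total signal was 791 units in PB rat 1, 41.3 in rat 2 and 48.2 in rat 3, and 43.0, 69.7 and 62.6 in the MC set 6 rats. Rat 1 stood far above all others, and rats 2 and 3 lay within or just below the range of the controls, so the groups overlapped. On the log2 scale the PB rats had 9.95, 7.79 and 7.74 and the controls 7.82, 7.81 and 7.78. The log2 difference of the means was 0.69 (SE 0.24, 95% confidence interval 0.20 to 1.17), and it was not called (limma, adjusted p = 0.153). The spread among the PB rats (SD 1.26, n = 3) was larger than this difference, and that of the controls was 0.02. Without PB rat 1 the difference was -0.04 (adjusted p = 0.889), without rat 2 it was 1.04 (adjusted p = 0.00371) and without rat 3 it was 1.06 (adjusted p = 0.00719). With scan day as a block it was 0.83 and called (adjusted p = 0.0411), and with slide as a fixed block it was 0.04 (adjusted p = 0.999). PB rats 1 and 2 were on slide 1, PB rat 3 on slide 9 and the MC set 6 rats on slide 2, so the groups share no slide.

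The high value of PB rat 1 was seen in every spot. miR-494 has 2 probes with 10 spots each, and all 20 spots of rat 1 read between 452 and 1302.5 units. Each of the 93 spots in use on the other 5 arrays of PB and MC set 6 read below the dimmest of these, so no spot overlapped. The processed signals of the 2 probes were 837 and 354 units in rat 1, 62.2 and 16.1 in rat 2, and 53.9 and 18.8 in rat 3. In the authors' table of normalized log2 values the 3 PB rats had 9.65, 5.13 and 4.99 and the controls 5.21, 5.28 and 4.97, with the same rat apart.

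Among all 162 detected miRNAs, PB rat 1 exceeded the highest of the other 5 arrays by 2.12 log2 units for miR-494, and the next miRNA was let-7b with 0.09. Over the whole series, its miR-494 value lay 1.48 log2 units above that of the next rat, CPA rat 3 at 8.46. The excess was not shared by the neighbours of miR-494 in the cluster. In PB rat 1 the adjacent miR-329 and miR-543 lay at -0.19 and -0.04 SDs of the negative controls, against 70.7 SDs for miR-494. The 39 never-detected members ranged in that rat from -0.76 to 0.90 SDs with a median of 0.01, and in MC set 6 rat 1 from -0.75 to 0.93 with a median of 0.09.

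**Figure D2:**
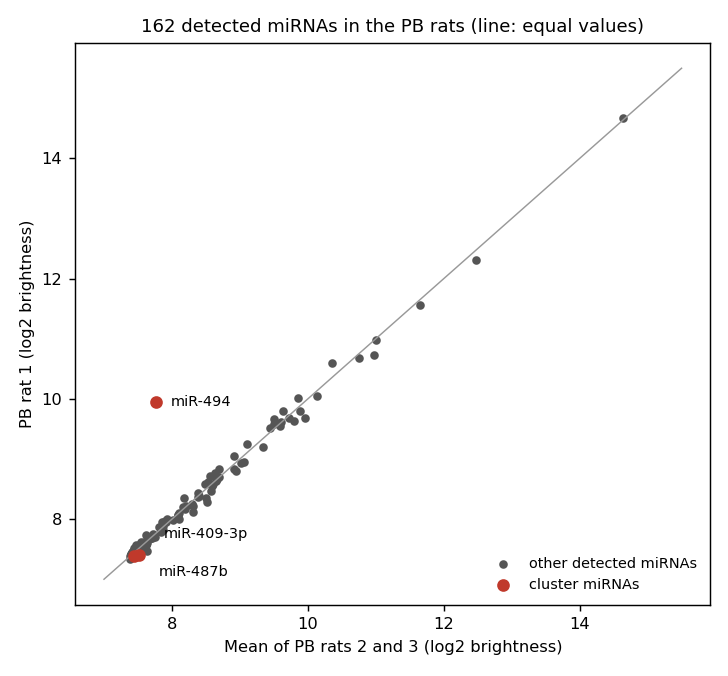
Log2 brightness of the 162 detected miRNAs in PB rat 1 (vertical axis) against the mean of PB rats 2 and 3 (horizontal axis); red points are the 3 detected cluster miRNAs. miR-494 lies 2.18 log2 units above the line of equal values, while miR-409-3p and miR-487b lie at the dim end near that line.

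The markers of liver and other cell types were compared in the same rats. Of 18 marker miRNAs of hepatocytes, mesenchymal, endothelial, blood and neuronal cells, 15 were detected, and the probes of miR-122, the hepatocyte miRNA, were the brightest, which does not rank levels between miRNAs. Between rat 1 and the mean of the other PB rats these 15 differed by -0.24 to 0.07 log2 units. Their summed brightness was 32520, 31721 and 32860 units in the PB rats and 32239, 33419 and 32680 in the controls. Most of this sum came from the 3 hepatocyte miRNAs (28500, 27836 and 28524 units in the PB rats), so it says little about other cells. The sum of the mesenchymal markers was 1025, 985 and 1035 units in the PB rats and 1061, 1072 and 1060 in the controls. That of the erythroid markers varied most relative to its size, with 1187, 1114 and 1371 units in the PB rats and 834, 1654 and 1336 in the controls. PB rat 1 lay within the range of the other rats for the mesenchymal and the erythroid sum. It had the lowest of the 6 sums for the leukocyte markers (900 units, against 908 to 1061) and for the neuronal marker miR-128 (174.7 units, against 175.4 to 180.4). Of the neuronal markers, miR-9 and miR-124 were detected on no array and miR-128 on 7. Whether cell composition has a part in the value of rat 1 was not tested.

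miR-409-3p was detected in PB rat 3 only, and so was miR-487b, and both were undetected in all MC set 6 rats. The log2 values of miR-409-3p were 7.39, 7.39 and 7.62 in the PB rats and 7.42, 7.40 and 7.40 in the controls. Those of miR-487b were 7.38, 7.39 and 7.48 in the PB rats and 7.37, 7.39 and 7.38 in the controls. Rat 3 was the high one for both, whereas rat 1 was the high one for miR-494, so no PB rat was high in all 3 members. The log2 difference was 0.07 (SE 0.04, adjusted p = 0.429) for miR-409-3p and 0.04 (SE 0.02, adjusted p = 0.429) for miR-487b, with no call in limma. PB rat 3 was the only array of this comparison scanned on day 3. Without it the difference of miR-409-3p was -0.01 (adjusted p = 0.930) and that of miR-487b was 0.00479 (adjusted p = 0.919).

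In PB, 0 of the 3 tested members were called higher and 0 lower, while 2.47% of all 162 miRNAs were called higher and 0.617% lower. The PB and control rats were fully apart for 0 of the 3 members, against 15.4% of all miRNAs. The change in PB was then compared with the mean change in the other 14 compounds, and 0 of 3 members were called, against 4.94% of all miRNAs. For miR-494 this difference was 0.65 log2 units (95% interval 0.12 to 1.18, adjusted p = 0.130), and it was -0.08 (adjusted p = 0.731) without PB rat 1, but 1.003 (adjusted p = 0.0129) without rat 2 and 1.027 (adjusted p = 0.0167) without rat 3. For miR-409-3p it was 0.10 (interval 0.01 to 0.19, adjusted p = 0.176) and for miR-487b 0.06 (interval 0.02 to 0.10, adjusted p = 0.0935). The difference of miR-487b passed the threshold without PB rat 1 (0.07, adjusted p = 0.0455) or without PB rat 2 (0.07, adjusted p = 0.0272), which leaves rat 3 with more weight. Without PB rat 3 it was 0.02 (adjusted p = 0.559), and that of miR-409-3p was also 0.02 (adjusted p = 0.784).

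The level of miR-494 was followed across all groups. Without PB rat 1, its total signal ran from 22.8 to 302 units over 62 arrays, with a median of 79.7. Ordered by the mean log2 value, PB came first with 8.49 ± 1.26 (SD, n = 3), then CPA with 8.12 ± 0.30, MPy with 8.11 ± 0.12 and Wy with 8.09 ± 0.28. CO set 3 with 7.74 ± 0.08 and CIDB with 7.69 ± 0.05 came last. Neighbours in this order differed by less than the larger of their SDs. Ordered by the median, PB came 16th of 21, and ETH came first with 8.06.

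None of the other 14 compounds had a call for miR-494. The largest log2 difference upwards was 0.26 in CPA, where the rats had total signals of 49.6, 112 and 189 units against 80.3, 62.3 and 37.6 in CO set 4. The second rise in order was that of MPy, 0.22, with rats at 157, 302 and 135.9 units. The largest difference downwards was -0.17 in DES, whose rats had 50.6, 25.6 and 40.8 units, all below the 87.1, 103 and 105 of MC set 5. It was not called (adjusted p = 0.590), except when only these groups were fitted (adjusted p = 0.0320), and compound, scan day and time of dosing cannot be told apart in it. In Nif the log2 difference was 0.14 (adjusted p = 0.900), with rats at 155, 129 and 144 units, all above the 120, 126 and 105 of MC set 2. Of all miRNAs, 54.3% had no overlap in DES and 25.3% in Nif. In the comparisons of these 14 compounds the 95% interval reached 0.49 log2 units to either side of the difference. This reach rests on PB rat 1, because all 21 groups share an estimate of the spread. Without that rat it was 0.20 log2 units, and still none of the 14 compounds had a call. Single high rats occurred with and without a compound. After PB rat 1, the log2 value exceeded the mean of its group mates most in CPA rat 3 (by 0.51), Wy rat 3 (0.48), AA rat 3 (0.27), the vehicle rat MC set 1 rat 6 (0.23) and MPy rat 2 (0.21). The rats of CPA, Wy and MPy each shared a scan day. AA rat 3 was scanned on another day than its group mates, and MC set 1 rat 6 on another day than rat 4 of its set.

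**Figure D3:**
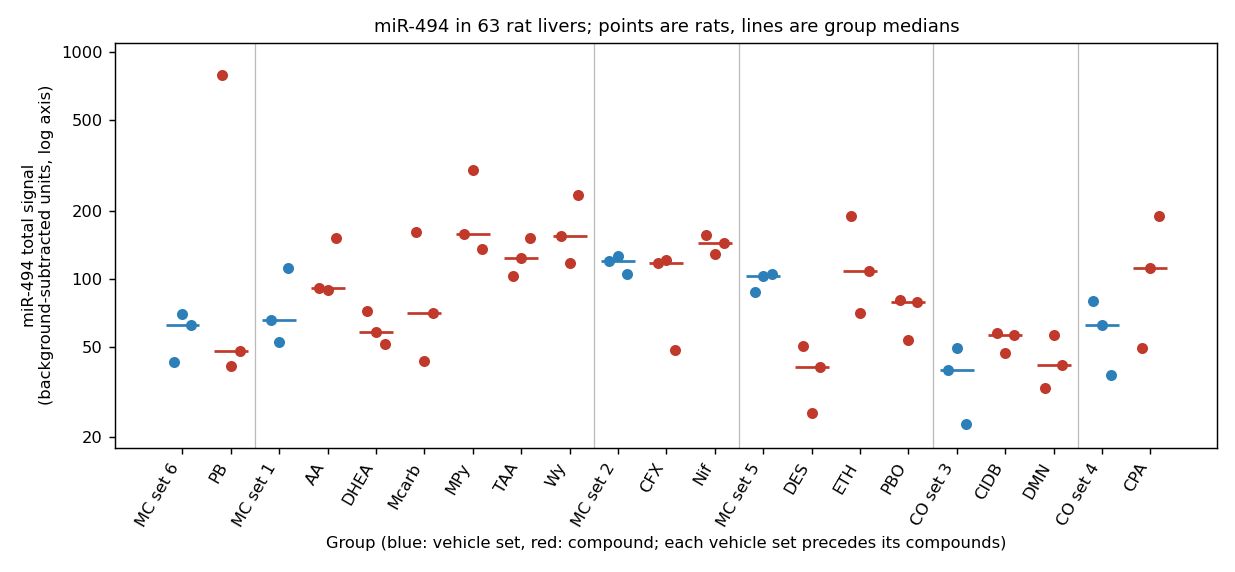
Total signal of miR-494 in background-subtracted units on a logarithmic axis, with a point for each of 63 rats and a line at each group's median; vehicle sets are blue and stand left of their compounds, which are red. PB rat 1 at 791 units lies above every other rat, and the other PB rats lie among the controls.

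The levels of miR-409-3p and miR-487b moved with the scan day. miR-409-3p was detected on 2 of 30 arrays of day 1, 22 of 28 of day 2 and 5 of 5 of day 3, and its median log2 value was 7.41, 7.54 and 7.62 on these days. Day 1 was not uniform for it. The arrays of slide 4 (AA rats 1 and 2, TAA and Wy) read 7.477 to 7.555 and held both detections. All other arrays of day 1 read at most 7.42. miR-487b was detected on 0 of 30, 2 of 28 and 5 of 5 arrays, with medians of 7.38, 7.40 and 7.45. miR-494 was detected on every array of every day, with medians of 7.81, 7.95 and 7.75. All 5 arrays on which miR-409-3p was well above background were those of day 3, and they came from PB, CIDB, Mcarb, CFX and MC set 1.

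**Figure D4:**
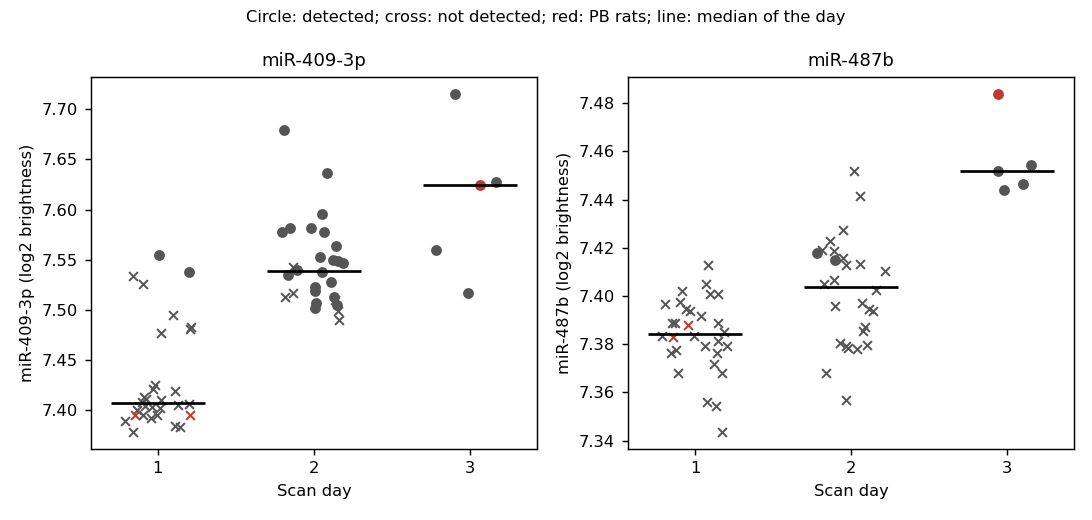
Log2 brightness of miR-409-3p (left) and miR-487b (right) on the 3 scan days; circles are arrays with the miRNA detected, crosses arrays without, red the PB rats, and lines the median of the day. For both miRNAs the medians rise from day 1 to day 3, and the high PB rat is the one scanned on day 3.

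In the other 14 compounds, 0 pairs of a member and a compound were called higher and 4 were called lower, of 42 pairs tested. Over all miRNAs, 7.94% of pairs were called higher and 7.14% lower. All 4 concern miR-409-3p or miR-487b, which were not well above background on most of these arrays, so no fold is given. miR-409-3p was called in DES, where 16% of all miRNAs were called lower, and in TAA, where 11.7% were. miR-487b was called in TAA and in MPy, where 10.5% of all miRNAs were called lower. The mean log2 differences were between -0.13 and -0.05. In all 4 pairs the compound and the time of dosing cannot be told apart, since by the labels DES was given for 3 days and TAA and MPy for 7 days, against 14 days for their controls. Against the mean change in the other 14 compounds, miR-409-3p was called lower in DES and TAA, as were 11.7% and 10.5% of all miRNAs, and miR-487b was called higher in CIDB, as were 17.3%.

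In DES, miR-409-3p had log2 values of 7.41, 7.42 and 7.38, below the 7.55, 7.52 and 7.55 of MC set 5 (adjusted p = 0.00928 in limma). It was detected in 0 of 3 DES rats and 2 of 3 controls. The DES arrays were scanned on day 1 and those of MC set 5 on day 2, so compound and scan day cannot be told apart. The groups did not overlap, as for 54.3% of all miRNAs in this comparison. With scan day in the model the difference was -0.09 and was not called (adjusted p = 0.311). Where each array was given the group that the table's columns point to, it was 0.04 (adjusted p = 0.553), on the other side of 0. This regrouped comparison sets the arrays labelled DHEA against those labelled MC set 2, so it does not use the arrays above.

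In TAA, miR-409-3p had log2 values of 7.48, 7.48 and 7.495, below the 7.56, 7.68 and 7.58 of MC set 1 (adjusted p = 0.0314 in limma). It was detected in 0 of 3 TAA rats and in all 3 controls. miR-487b had 7.40, 7.38 and 7.39 in the TAA rats and 7.44, 7.45 and 7.42 in the controls (adjusted p = 0.0336). It was detected in 0 of 3 TAA rats and 1 of 3 controls, so this difference lies mostly between undetected values. The groups did not overlap for either miRNA, as for 34% of all miRNAs in this comparison. MC set 1 had the highest mean log2 value of the 21 groups for both miRNAs. Against all control rats of the vehicle the differences were -0.03 and -0.02 and not called (adjusted p = 0.527 and 0.232). The TAA arrays were scanned on day 1 and the controls on days 2 and 3, so the day and the compound cannot be told apart. With scan day in the model neither was called (-0.04, adjusted p = 0.607 for miR-409-3p and -0.02, adjusted p = 0.510 for miR-487b). With slide as a random block neither was called (adjusted p = 0.144 and 0.107), at -0.10 and -0.05 against -0.12 and -0.05 in the main fit. With arrays regrouped to follow the value table they were -0.05 and -0.02 and not called (adjusted p = 0.426 for both). Both calls were lost when any of the TAA rats or MC set 1 rat 5 was left out, with adjusted p of 0.0597 to 0.222 for miR-409-3p. For miR-487b the same holds also for MC set 1 rat 4, with adjusted p of 0.0685 to 0.120.

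In MPy, miR-487b had log2 values of 7.39, 7.39 and 7.37 against 7.44, 7.45 and 7.42 in MC set 1 (adjusted p = 0.0195 in limma), without overlap, as for 37% of all miRNAs there. It was detected in 0 of 3 MPy rats and 1 of 3 controls. MPy and 2 of the 3 controls were scanned on day 2, and within that day the difference was -0.05 (adjusted p = 0.0162), where 12.3% of all miRNAs were called lower. miR-487b was detected on 0 of these 5 arrays, since the control with a detected value was scanned on day 3, so this is a difference between undetected values. All MPy arrays were on slide 5 and these 2 controls on slide 8, so compound and slide cannot be told apart within the day. With slide as a random block the difference was -0.04 and not called (adjusted p = 0.177), and with slide as a fixed block it was 0.00437 (adjusted p = 0.995). Where arrays were given the groups that the table's columns point to, it was -0.03 (adjusted p = 0.349). Against all control rats of the vehicle it was also -0.03 and not called (adjusted p = 0.176). The call of miR-487b over all arrays was lost without MPy rat 3 or without MC set 1 rat 4 or rat 5, with adjusted p of 0.0622 to 0.101.

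**Figure D5:**
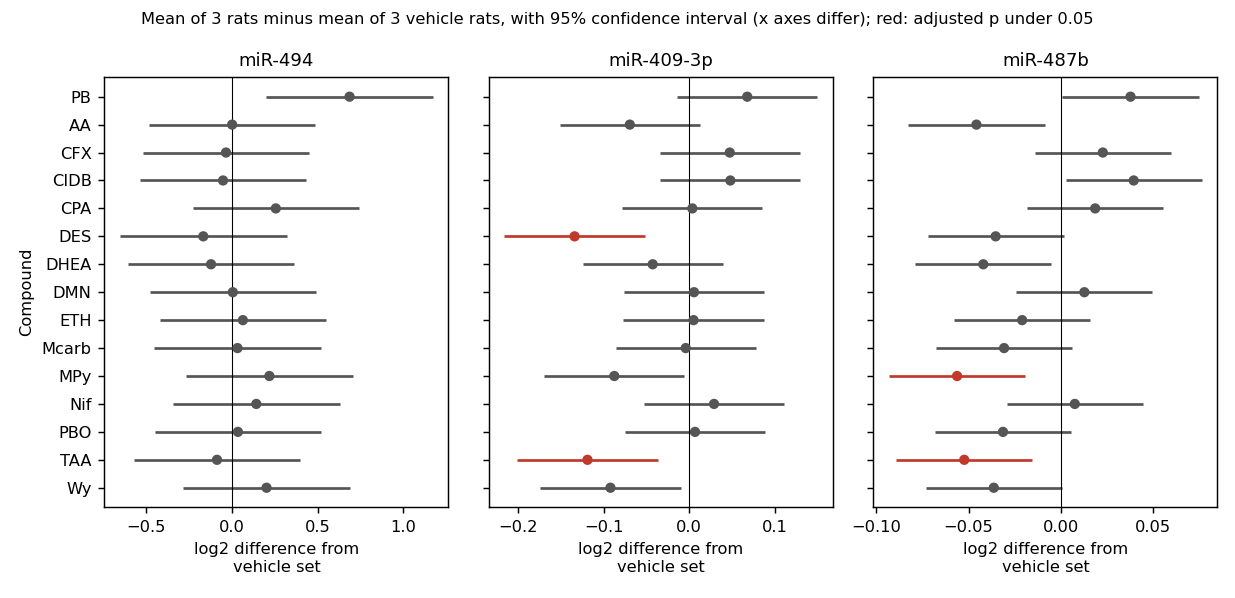
Log2 difference of the 3 detected cluster miRNAs between each of 15 compounds and its vehicle set, as the mean of 3 rats minus the mean of 3 vehicle rats with its 95% confidence interval; the horizontal axes differ and red marks an adjusted p under 0.05. The 4 red values are miR-409-3p in DES and TAA and miR-487b in MPy and TAA, and none is from PB or miR-494.

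Vehicle-treated rats were compared with each other as a background without compound. Between MC set 6, the control of PB, and the other MC sets, 2 of 3 members were called lower, against 10.5% of all miRNAs. The log2 difference was -0.15 (adjusted p = 0.000960) for miR-409-3p and -0.04 (adjusted p = 0.0477) for miR-487b. When each of the 63 rats in turn was left out, the call of miR-409-3p was never lost and that of miR-487b was lost in 41 fits. Without any of the MC set 6 rats the adjusted p of miR-487b was 0.0789 to 0.189, and without a detection filter it was 0.0604. MC set 6 was scanned on day 1 and the others on days 2 and 3, so set and day cannot be told apart. Corn oil against methylcellulose gave calls for the same miRNAs, -0.12 and -0.04, both lower, against 16% of all miRNAs called lower. Within day 1, which holds both CO sets and MC set 6, these differences were -0.00494 and -0.01, and 0 of 3 members were called (adjusted p = 0.951 and 0.927). Both miRNAs were detected on 0 of these 9 arrays, so this comparison says nothing about vehicle differences above the detection mark. For miR-494 the difference was -0.10 (adjusted p = 0.746) between MC set 6 and the other MC sets and -0.07 (adjusted p = 0.707) between the vehicles.

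The never-detected members were also tested with all 350 miRNAs in the fit, to see whether a shift below the detection mark appears. In PB, 0 of 39 were called, against 1.43% of 350 miRNAs, and their log2 differences ran from -0.03 to 0.02 with a median of 0.00179. Over the 15 compounds, 7 of 585 pairs were called higher and 9 lower, against 3.43% and 3.07% of all pairs. The compound with most was TAA with 4, where 11.7% of 350 miRNAs were called, followed by DES with 3 (19.4%) and CIDB with 3 (9.43%). The largest in size was 0.0504 log2 units, for miR-382 in DES (limma, adjusted p = 0.00609). Since these members were detected in neither group, no fold is given. Averaged over the 39 members, the brightness was 0.09, 0.08 and 0.06 SDs above the negative controls in the PB rats and 0.08, 0.01 and 0.08 in the MC set 6 rats.

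Further miRNAs of the region were taken from a list beside the chosen names. The starred arms miR-136*, miR-323*, miR-376a*, miR-379*, miR-382* and miR-543* and the miRNA miR-673 were on the array, and 0 of these 7 were detected. Of miRNAs from other imprinted loci, miR-296 and miR-298 of the Gnas locus and miR-483 in the Igf2 gene were detected on no array. miR-335, which lies in the Mest gene, was detected on all 63 arrays. In PB its log2 difference was -0.01 (SE 0.04, adjusted p = 0.880) and not called. It was called higher in DES (0.11, adjusted p = 0.0121) and DHEA (0.18, adjusted p = 0.000141), where 21% and 9.88% of all miRNAs were called higher, and lower in CPA (-0.11, adjusted p = 0.0478), where 1.85% were called lower. DES and DHEA are among the groups whose arrays the value table places elsewhere. With arrays regrouped to follow that table both labels had a call (0.11, adjusted p = 0.0379 in DES, and 0.115, adjusted p = 0.0121 in DHEA). The regrouped DHEA comparison holds the arrays labelled DES and MC set 5, so it repeats the DES result and is no check of DHEA. The regrouped DES comparison sets the arrays labelled DHEA against those labelled MC set 2. Under the scanner labels, with scan day in the model, the difference in DES was 0.06 and not called (adjusted p = 0.465). That in DHEA was 0.17 and stayed called (adjusted p = 0.000234). With slide as a random block DES was 0.11 and not called (adjusted p = 0.0557), and DHEA was 0.18 and called (adjusted p = 0.00135). With slide as a fixed block neither was called, at 0.01 in DES (adjusted p = 0.997) and 0.23 in DHEA (adjusted p = 0.221). In CPA the difference stayed at -0.11 and called in these fits (adjusted p = 0.0214 to 0.0317).

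Over the 63 arrays the log2 values of miR-409-3p and miR-487b correlated with r = 0.65, which fell to 0.54 within day 1 and 0.33 within day 2. The r of miR-494 with these was -0.05 and -0.09. Within day 1 it was -0.00449 and 0.13, and within day 2 it was -0.25 and -0.31. Of the 103 other miRNAs detected on at least 32 arrays, those whose 21 group means were most like the means of miR-494 were miR-96 (r = 0.46), miR-451 (r = 0.39), miR-22 (r = 0.37), miR-26a (r = 0.36) and miR-122 (r = 0.36). These are descriptions over groups that share scan days and vehicle rats. All 5 values are low, and without PB they were 0.46, 0.40, 0.46, 0.36 and 0.48.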

How the data were processed

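For every array the authors deposited spot-level scanner output, made per the file headers with Agilent Feature Extraction 10.7.3.1. They hold intensity values (mean brightness, local background, processed signal) and the marks for detected and well above background. The deposited value table holds the authors' log2 values of 135 miRNAs, for which the submitters' processing notes name RMA. It covers 2 of the detected cluster miRNAs.

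Here outlier-flagged spots (2.87%) and control probes were dropped, the mean intensity was quantile normalized without background correction, and a log2 value per miRNA was made by averaging spots within probes and median polish across probes. No spot was saturated. The number of arrays limits the precision. The 162 miRNAs detected on at least 1 array were fitted in limma 3.58.1 (R 4.3.3) over 21 groups, with Benjamini-Hochberg adjustment. Only the limma fit was tested on simulated log2 values, with 40 miRNAs shifted by 1 log2 unit in PB. All 40 were recovered among 44 called. Smaller changes, spot handling and normalization were not simulated. Rats were caged individually according to the study's methods. Whether the livers of a group were processed separately is not given in the sources used here, so p-values measure the spread between these rats, which may be partly technical. All members detected on an array are named, together with the lists given in the text and the 5 miRNAs most like miR-494. The members, lists and tests were chosen with earlier results of these data known. The alternatives are given in the closing section.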

Additional observations from a re-analysis of the deposited data

Results flagged for a closer look

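For 3 values the change in a compound differed from the mean change in the other 14 compounds, by a limma contrast at an adjusted p under 0.05. In the same contrasts 11.7% of all 162 miRNAs were called lower in DES, 10.5% lower in TAA and 17.3% higher in CIDB. The change of miR-409-3p was lower in DES by a log2 difference of -0.12 (adjusted p = 0.0234) and in TAA by -0.104 (adjusted p = 0.0327). With scan day in the model these were -0.08 (adjusted p = 0.332) and -0.04 (adjusted p = 0.599). The difference in DES lost its call without DES rat 3 (adjusted p = 0.0922) or MC set 5 rat 9 (adjusted p = 0.0590). That in TAA lost it without any of the TAA rats or MC set 1 rat 5, with adjusted p of 0.0693 to 0.139. The change of miR-487b was higher in CIDB by 0.0573 (adjusted p = 0.0242), where CIDB rat 2 was scanned on day 3 and the other rats and the controls on day 1. Without CIDB rat 2 it was 0.04 (adjusted p = 0.209), and without CO set 3 rat 6 it was 0.05 (adjusted p = 0.111). With scan day in the model it was 0.03 and not called (adjusted p = 0.198). Some alternatives turned the sign of these values. For miR-409-3p, DES was 0.0504 with arrays regrouped to follow the value table and 0.428 in that table. Both of these place the arrays labelled DHEA under DES. TAA was 0.0406 with slide as a fixed block. For miR-487b, CIDB was -0.0126 and -0.0199 with the scalings of the processed signal.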

How the results depend on the processing

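Signal over background limits 41 of the 42 cluster miRNAs, and the groups of 3 rats limit the rest. The number of members called higher in PB was 0 and became 1 (miR-494) with scan day as a block (0.83, adjusted p = 0.0411), with all control rats of the vehicle (0.61, adjusted p = 0.0387), with only the PB rats of the scan day of MC set 6 (1.06, adjusted p = 0.00719) and with the PB rats on the slide of CO set 4 against that set (1.00, adjusted p = 0.00804). All of these keep PB rat 1. With slide as a fixed block the difference was 0.04 (adjusted p = 0.999). In the authors' value table it was 1.44 (adjusted p = 0.190), with the processed signal 1.402 (adjusted p = 0.210 and 0.207) and with normexp 0.88 (adjusted p = 0.153). Leaving out 1 rat gave 0 to 1 calls higher and 0 calls lower. The value ran from -0.0400 (without PB rat 1) to 1.06, and its difference from the other compounds from -0.0757 (without PB rat 1) to 1.03. With the replicate block it stayed at 0.69 with an adjusted p of 0.896, and calls stayed at 0 in PB and in CPA. Deviations of rats with the same number correlated with r of 0.05, -0.26 and -0.07 in PB and MC set 6. In CPA and CO set 4 these were -0.23, -0.16 and -0.21. The values show no pairing of rats by number, but groups this small cannot exclude it.

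The number of pairs called lower in the other 14 compounds, 4 above, was 1 under 5 alternatives. That pair was miR-409-3p in DES with the processed signal scaled over probes detected on all arrays and with slide as a random block, and miR-487b in MPy with scan day as a block. In the value table, which lacks miR-487b, and with arrays regrouped to follow it, it was miR-409-3p in DHEA, and none of the 4 was called under its own label. In both, DHEA and its control stand for the arrays labelled DES and MC set 5. This call is therefore the reported one of miR-409-3p in DES under another name. The number was 2 with the processed signal scaled over all probes and with the stricter filter, which also drops miR-487b (both times miR-409-3p in DES and TAA), and with all control rats and only the groups compared (miR-409-3p in DES each time, with miR-487b in DES and miR-494 in DES). It was 3 with normexp, where miR-487b in MPy lost its call with a difference of -0.09 (adjusted p = 0.107). It was 0 with slide as a fixed block. There miR-409-3p in DES was -0.20 (adjusted p = 0.179), against -0.13 in the main fit, and the other pairs ran from -0.01 to 0.07. The number was 13 (beside 7 called higher) without a detection filter, where the 4 were kept and the other 9 were never-detected members. Leaving out 1 rat gave 1 (MC set 1 rat 5) to 7 pairs lower and 0 higher, and the 7, without PB rat 3, held the 4 and miR-487b in AA and DHEA and miR-409-3p in Wy. The members whose change in PB differed from the other compounds rose from 0 to 1 with the processed signal over probes detected on all arrays and with all control rats, and ran from 0 to 2 when 1 rat was left out.

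The 2 calls between MC set 6 and the other MC sets, and the 2 between the vehicles, became 1 each, always miR-409-3p, under 5 alternatives. miR-487b was not tested with the value table and the stricter filter, had a difference of 0 with both scalings of the processed signal, and lost its call with slide as a random block. Both numbers were 0 with slide as a fixed block or scan day as a block, and they were 4 and 11 without a detection filter, never-detected members included. The comparison of the vehicles within day 1, chosen after seeing the data like that of MPy within day 2, gave 0, with both miRNAs undetected on all its arrays. Leaving out 1 rat gave 1 to 2 and 2 calls.

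Several small differences changed sign. That of miR-409-3p in DES was 0.0435 with arrays regrouped to follow the value table and 0.376 in that table, and its difference from the other compounds 0.0504 and 0.428. In both, DES stands for the arrays labelled DHEA, so these values are not from the same rats. With slide as a fixed block, miR-409-3p was 0.129 in MPy, 0.0720 in TAA and 0.0406 in TAA against the other compounds, miR-487b was 0.00437 in MPy and 0.00525 between the vehicles, and miR-494 in PB against the other compounds was -0.0380. With all control rats, miR-409-3p was 0.000887 in MPy, -0.0458 in PB and -0.0598 in PB against the other compounds. In PB it was -0.00771 against CO set 4 and -0.00862 within the scan day, and leaving out 1 rat gave -0.00862 (without PB rat 3) to 0.106 (without PB rat 1 or 2). miR-487b in CIDB against the other compounds was -0.0126 and -0.0199 with the 2 scalings of the processed signal. miR-409-3p in MPy, not called over all arrays (-0.09, adjusted p = 0.114), was called within day 2 (-0.11, adjusted p = 0.0373) and in no other alternative, with a lowest adjusted p of 0.0601 when each of the 63 rats was left out. The causes were not tested.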
